A study of Bos taurus with 20 samples.

Results

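The 8 genes described here belong to the pathway by which animal cells make cholesterol. They were chosen by symbol, as HMGCS1, IDI1, FDPS, SQLE, LSS, DHCR7, INSIG1 and SREBF2, and each symbol was matched to 1 Entrez identifier among the 37063 identifiers of the count files. All 8 were among the 16206 genes with enough counts to be tested. The list is named for synthesis and uptake, but none of the 8 is an uptake gene, since 6 code for synthesis enzymes and 2 for regulators of the pathway. The genes lie on 8 different chromosomes in the cattle gene table.

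Whole blood of 20 recipient cows was collected on gestation day 63, each cow carrying a female fetus from an in vitro produced embryo of an Angus oocyte fertilized with X-sorted semen, so that the recipient is not the genetic dam. Calf birth weight (BW) was recorded at parturition and ranged from 30 to 56 kg in 19 calves, with 1 calf of 72.5 kg. The methods of the study describe the recipients as lactating dairy cows, whereas its table of datasets lists Angus recipients, and neither nonpregnant cows nor a treated group were part of the design. Each cow is named below by the BW of its calf.

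Cells obtain cholesterol both by synthesis from acetyl-CoA through the mevalonate pathway and by uptake of lipoprotein particles. When sterol in the endoplasmic reticulum is low, the transcription factor SREBP2, the product of SREBF2, is escorted to the Golgi apparatus, cut by proteases and moved to the nucleus, where it raises transcription of the synthesis enzymes and of genes for uptake. INSIG proteins hold it back when sterol is plentiful. Blood leukocytes carry this circuit, and mature red cells of mammals, which have no nucleus, do not transcribe it.

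Levels are given as CPM, that is, counts scaled to a common library size with the trimmed mean of M-values (TMM). Total counts per cow ranged from 24632077 to 39892111. Because transcript lengths were not at hand, levels are compared between cows and not between genes. Markers of leukocytes were present in every cow, with a summed level of 3589 to 6214 CPM for 9 neutrophil genes, 1205 to 1827 CPM for 10 T cell genes, 1205 to 2219 CPM for 9 B cell genes and 927 to 2174 CPM for 8 monocyte genes. The 7 erythroid genes tested summed to between 54.5 and 1097 CPM, most of it from the beta-globin gene HBB. In whole blood, fewer cells of a type and less RNA per cell cannot be told apart.

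The highest level of each enzyme was between 1.56 and 2.19 times its lowest. HMGCS1 (Entrez 407767), which makes HMG-CoA at the entry of the pathway, had 66.5 CPM in the lowest cow, a median of 83.9 CPM and 133 CPM in the highest, with a mean of 86.5 ± 16.5 CPM (SD, n = 20). One cow, that of the 37 kg calf, stood above the rest, the next being that of the 53 kg calf with 109 CPM. IDI1 (Entrez 514293), which isomerizes isopentenyl diphosphate, ranged from 44.0 through a median of 54.8 to 78.0 CPM, a mean of 57.4 ± 8.57 CPM (SD, n = 20). Its 2 highest cows were those of the 37 kg and 36 kg calves. FDPS (Entrez 281156), farnesyl diphosphate synthase, ranged from 82.6 through 126 to 181 CPM, a mean of 126 ± 21.3 CPM (SD, n = 20). In contrast to the other enzymes, FDPS had its highest level with the 30 kg calf and its lowest with the 35 kg calf.

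The enzymes of the sterol branch varied less. SQLE (Entrez 526535), squalene epoxidase, ranged from 46.5 through a median of 59.2 to 78.3 CPM, with a mean of 60.4 ± 7.28 CPM (SD, n = 20). LSS (Entrez 615906), which closes the ring of lanosterol, ranged from 20.2 through 24.3 to 32.1 CPM, with a mean of 24.7 ± 3.10 CPM (SD, n = 20). DHCR7 (Entrez 514745), which catalyzes the last step of one branch to cholesterol, ranged from 23.2 through 29.8 to 36.2 CPM, with a mean of 30.1 ± 3.19 CPM (SD, n = 20). The cow of the 38 kg calf was the lowest for all 3, while the highest was the cow of the 37 kg calf for SQLE and that of the 36 kg calf for LSS and DHCR7.

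Of the regulators, SREBF2 (Entrez 507102) ranged from 264 through a median of 330 to 411 CPM, with a mean of 323 ± 38.2 CPM (SD, n = 20). INSIG1 (Entrez 511899), which is itself a target of SREBP2, ranged from 38.6 through 46.9 to 75.0 CPM, with a mean of 49.2 ± 9.04 CPM (SD, n = 20). Both were lowest in the cow of the 38 kg calf, but the highest SREBF2 level went with the 50 kg calf and the highest INSIG1 level with the 37 kg calf. The coefficient of variation (CV) between cows was between 10.6% for DHCR7 and 19.1% for HMGCS1, and counting error alone would give between 0.981% for SREBF2 and 3.56% for LSS. The median CV of all genes tested was 15.6%. Compared with the 1000 genes nearest in level, the CV of HMGCS1 exceeded that of 92.9%, INSIG1 of 90.7%, FDPS of 89.9%, IDI1 of 84.9%, SREBF2 of 77.8%, SQLE of 75.2%, LSS of 66.8% and DHCR7 of 59%.

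The genes were high and low in the same cows. In the cows of the 30, 36 and 37 kg calves all 8 genes were above their mean, and in those of the 32, 38, 41.5 and 49.5 kg calves all 8 were below it. The cow of the 37 kg calf had the highest level of 4 genes, and the cow of the 38 kg calf had the lowest level of 5 and was among the lowest 3 for 7. The mean of the 8 z-scores, called the pathway score below, was 1.56 in the former and -1.62 in the latter, although their calves differed by little in weight. The cow of the 72.5 kg calf lay in the middle, with a score of 0.113.

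**Figure D1:**
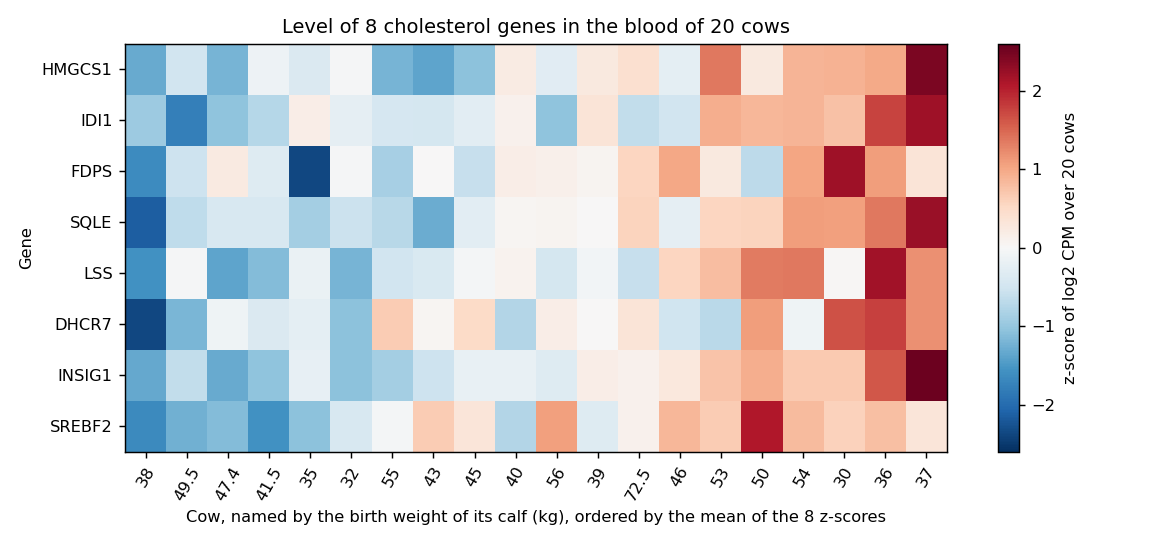
The z-score of log2 CPM is shown for 8 genes (rows) in 20 cows (columns, labelled with calf BW in kg), ordered by the mean of the 8 values, with red above and blue below the mean of the gene. Columns are mostly of one colour, from the cow of the 38 kg calf with a mean of -1.62 to the cow of the 37 kg calf with 1.56, and the order does not follow BW.

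Correlation over the 20 cows was computed for the 28 pairs of genes. All 28 Pearson correlations were positive, with a median of 0.64 and a range of 0.35 to 0.89, and 20 of the 28 were at least 0.5. Among all pairs of the genes tested, 3.62% reached 0.5 and the median was -0.002. This share was computed only on log2 CPM in all 20 cows. Counts of pairs with cows left out, on residuals or under other alternatives have no such share beside them. By a permutation test with 100000 resamples, 23 of the 28 Pearson and 19 of the 28 Spearman correlations had a p below 0.05 after Benjamini-Hochberg adjustment over the 28 pairs. Each point is 1 library, from which both values of a pair come. Leaving out any 1 cow gave between 17 and 23 pairs at 0.5 or above, with 17 when the 38 kg calf's cow was the one left out. Without the 3 cows whose score lay farthest from 0, those of the 36, 37 and 38 kg calves, 14 pairs were at 0.5 or above, the median was 0.51 and all 28 correlations were positive, an alternative chosen after seeing the data.

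By Pearson correlation in 20 cows, the closest pair was HMGCS1 and SQLE, an early enzyme and the first of the sterol branch after squalene. Their Pearson and Spearman correlations were both 0.89 (permutation p = 1e-05 each, the smallest that 100000 resamples can give, adjusted 5.6e-05 and 9.33e-05). Without the 2 cows farthest from the median of HMGCS1, the Pearson correlation was 0.87. For every pair given below, the 2 farthest cows are taken from 1 gene only, the one named earlier in the opening list. They therefore differ between pairs. INSIG1 was at similar values with 4 of the enzymes, and by Spearman correlation its pair with LSS was the closest. Its Pearson correlation was 0.88 with SQLE, 0.88 with LSS, 0.88 with IDI1 and 0.86 with HMGCS1 (permutation p = 1e-05 and adjusted p = 5.6e-05 for each), and the Spearman correlations were 0.85, 0.90, 0.80 and 0.82, with adjusted permutation p of 9.33e-05, 9.33e-05, 0.00028 and 0.00021. Without the 2 farthest cows the Pearson values were 0.82, 0.85, 0.76 and 0.77. Without the cows of the 36, 37 and 38 kg calves the closest pair was LSS and INSIG1 (0.88, against 0.83 for HMGCS1 and SQLE), and with residuals on 5 marker scores, of neutrophils, T cells, B cells, monocytes and erythroid cells, it was IDI1 and INSIG1 (0.91, against 0.89). In these 5 genes, grouped after their values were seen, all 10 pairs lay between 0.67 and 0.89.

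FDPS and SREBF2 had lower Pearson correlations with this group in 20 cows. Of the 8 pairs below 0.5, 7 involved one of them, and the other was HMGCS1 with DHCR7. The lowest Pearson correlation was that of IDI1 and FDPS, enzymes of successive steps, with 0.35 (permutation p = 0.131, adjusted 0.131) and a Spearman correlation of 0.36 (permutation p = 0.122, adjusted 0.132). Without the 2 farthest cows it was 0.27. With residuals on the neutrophil and T cell scores it was 0.50, and on the 5 marker scores 0.68 (unadjusted permutation p = 0.0264 and 0.00088). These 2 p-values tend to be too small, because the permutation took no account of the scores fitted. By Spearman correlation the lowest pair was FDPS and DHCR7, at 0.32. FDPS was closer to SQLE, with 0.65 (permutation p = 0.00242, adjusted 0.00484) and a Spearman correlation of 0.76 (permutation p = 0.00027, adjusted 0.00126), and the Pearson value became 0.66 when the 2 farthest cows were left out. The values of FDPS with the other genes of the group moved with the measure. Its Spearman correlations were 0.67 with HMGCS1, 0.58 with INSIG1 and 0.47 with LSS. For HMGCS1 the 2 farthest cows were those of the 37 and 53 kg calves, and for INSIG1 and LSS those of the 35 and 30 kg calves. Without them the Pearson correlations of FDPS were 0.61, 0.53 and 0.53. With residuals on the 5 marker scores they were 0.63, 0.66 and 0.49, and 0.82 with SQLE. SREBF2 had Pearson correlations between 0.37 with HMGCS1 (permutation p = 0.105, adjusted 0.109) and 0.68 with LSS (permutation p = 0.00109, adjusted 0.00277), with Spearman correlations of 0.36 (adjusted permutation p = 0.132) and 0.63 (adjusted permutation p = 0.00696). Without the 2 farthest cows these were 0.38 and 0.63. Each of the correlations of SREBF2 with IDI1, HMGCS1, SQLE and LSS was thus lower than that of INSIG1 with the same enzyme, and these differences were not tested.

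Without the cows of the 36, 37 and 38 kg calves most pairs had a lower Pearson correlation, such as IDI1 and SQLE (0.60 in place of 0.77). The pair of SREBF2 and INSIG1 had a higher one (0.71 in place of 0.62). The correlations of DHCR7, like those of FDPS, were all lower. Its Pearson correlation was 0.71 with SQLE (permutation p = 0.0007, adjusted 0.00196; Spearman 0.57, adjusted permutation p = 0.0158) and 0.57 with LSS (permutation p = 0.00905, adjusted 0.0141; Spearman 0.38, adjusted permutation p = 0.12). Without the 2 farthest cows these were 0.54 and 0.29. Without the cows of the 36, 37 and 38 kg calves they were 0.40 and 0.18. The correlation of HMGCS1 and DHCR7 moved from 0.42 to 0.45 without the 2 farthest cows, and to 0.017 without these 3. Of the 7 correlations of DHCR7, 6 had an unadjusted permutation p below 0.05 in 20 cows. In the 17 cows left without these 3, 1 had, that with SREBF2. For FDPS 5 of 7 had in 20 cows and 1, that with SQLE, in the 17. These 3 cows were chosen as the most extreme in a score that holds all 8 genes, so a lower correlation without them follows in part from the choice.

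**Figure D2:**
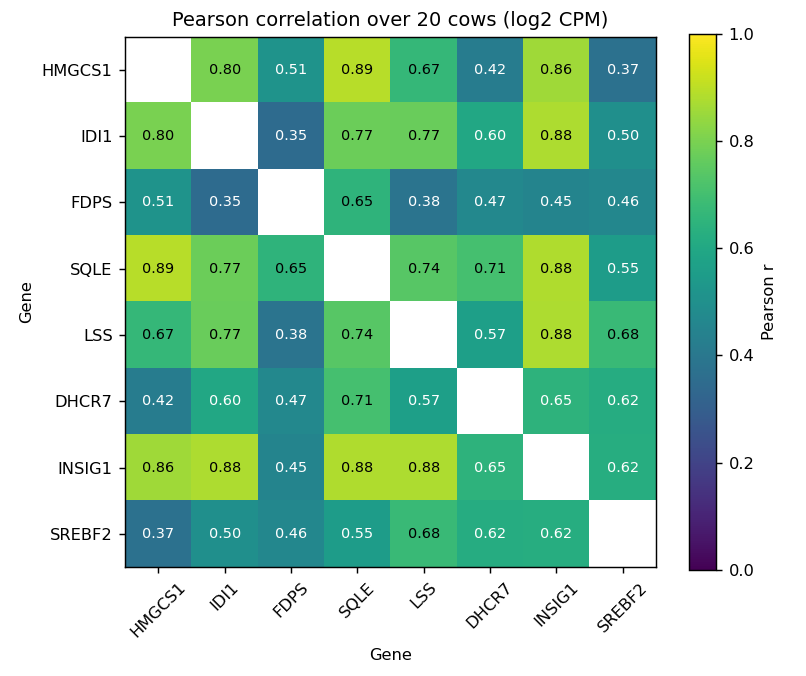
Each cell gives the Pearson correlation of log2 CPM of 2 genes over 20 cows, on a colour scale from 0 to 1. The brightest cells join HMGCS1, IDI1, SQLE, LSS and INSIG1, at 0.67 to 0.89, and the rows of FDPS and SREBF2 hold most of the darker cells, down to 0.35.

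When the genes most like each of the 8 were sought among all genes tested, those of HMGCS1, IDI1, SQLE and INSIG1 came mainly from the same pathway. For SQLE the 4 closest of the 16205 other genes were HMGCS1, INSIG1, CYP51A1 (0.88) and FDFT1 (0.84), followed by TM2D2 (0.77). CYP51A1 codes for lanosterol demethylase and FDFT1 for squalene synthase. For HMGCS1 the closest was CYP51A1 (0.94), for IDI1 it was FDFT1 (0.95), with NSDHL, a sterol dehydrogenase, in place 6 (0.77), and for INSIG1 it was FDFT1 (0.90), with MSMO1, a sterol methyl oxidase, in place 7 (0.82). LSS had INSIG1 first and FDFT1 second (0.79), then PTP4A3 (0.77) and CDK20 (0.77). These Pearson correlations are descriptions over 20 cows.

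The other 3 genes had other neighbours. For FDPS the closest were LOC100336029 (0.76), ALAD (0.71), an enzyme of heme synthesis, and RTP4 (0.71), an interferon-induced gene, and SQLE was in place 17. For DHCR7 they were LOC512684 (0.74), SEPTIN4 (0.73) and TOP3B (0.73), with SQLE in place 6. For SREBF2 they were the transcription factors USF2 (0.90) and KLF2 (0.88) and the kinase STK11 (0.88). The closest of the others among the 8 genes, LSS, came in place 274. SREBF2 reached a Pearson correlation of 0.5 with 1199 genes, or 7.4% of those tested, the most of the 8 genes. SQLE did so with the fewest, 147, or 0.907%. This share did not follow the grouping by neighbours, since it was 4.17% for IDI1, 1.17% for FDPS and 1.5% for DHCR7.

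The wider pathway was examined with lists of 55 other genes, of which 53 were tested. VLDLR had 0 counts and APOE had 52 counts in all cows together, so neither was tested. Across the 53 genes, 14 had a Pearson correlation of at least 0.5 with the pathway score and 0 were at -0.5 or below. Of the 16198 genes tested outside the 8, 1.31% reached 0.5 and 1.86% were at -0.5 or below. Without the cows of the 36, 37 and 38 kg calves 9 of the 53 reached 0.5, and with any 1 cow left out between 10 and 16. With residuals on the 5 marker scores 13 reached 0.5 and 3 were at -0.5 or below. These 3 were SCARB1 (-0.69), MYLIP (-0.67) and RNF145 (-0.63). Without residuals MYLIP reached -0.55 with 1 cow left out. The shares of 1.31% and 1.86% were computed only without residuals and with no cow left out. The counts with cows left out or on residuals have no such share beside them. Whether those counts, or the 3 negative genes, stand out was therefore not tested.

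Among the 16 other synthesis enzymes, 9 reached 0.5. FDFT1 (0.90) and CYP51A1 (0.82) were the 2 genes closest to the score of all 16198, and NSDHL (0.75) and MSMO1 (0.74), which act in the later sterol steps, were in places 9 and 11. FDFT1 had 86.2 CPM in the lowest cow, a median of 111 CPM and 163 CPM in the highest. The lowest were LBR, a sterol reductase that is also a receptor for lamin B in the nuclear envelope (-0.24), HSD17B7 (-0.13) and GGPS1 (-0.035), the last of which makes geranylgeranyl diphosphate outside the sterol branch. The list was thus not uniform, and 3 of its 16 genes had a negative value.

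Of the 10 uptake and transport genes tested, 1 reached 0.5. STARD3, a sterol carrier of late endosomes, was at 0.30, and SCARB1, the receptor for high density lipoprotein, had the lowest value (-0.32). In the list for cholesterol efflux and LXR, the sterol sensor that raises efflux, 0 of 7 reached 0.5. Its lowest values were those of MYLIP (-0.45), a ubiquitin ligase induced by LXR, and ABCA1 (-0.43), the main efflux pump, and they were -0.29 and -0.11 without the 3 cows but -0.67 and -0.44 with residuals on the 5 marker scores. NR1H2, one of the LXR genes, had the highest (0.41), and NR1H3, the other, the next (0.23), which was 0.58 with those residuals.

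The 10 genes of fatty acid synthesis, which SREBP1 controls, all had a positive correlation with the score, and 3 reached 0.5. These were SCD, stearoyl-CoA desaturase (0.75, place 8), FASN, fatty acid synthase (0.52), and ACACA (0.51). Without the 3 cows farthest in score they were 0.72, 0.65 and 0.17. In the list for sterol sensing and SREBP processing only SREBF1, which codes for SREBP1, reached 0.5 (0.57), and SCAP, the escort of SREBP, was at 0.16. RNF145, a ubiquitin ligase, was the lowest (-0.39). The genes coding for the proteases MBTPS1 and MBTPS2 were at -0.27 each.

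**Figure D3:**
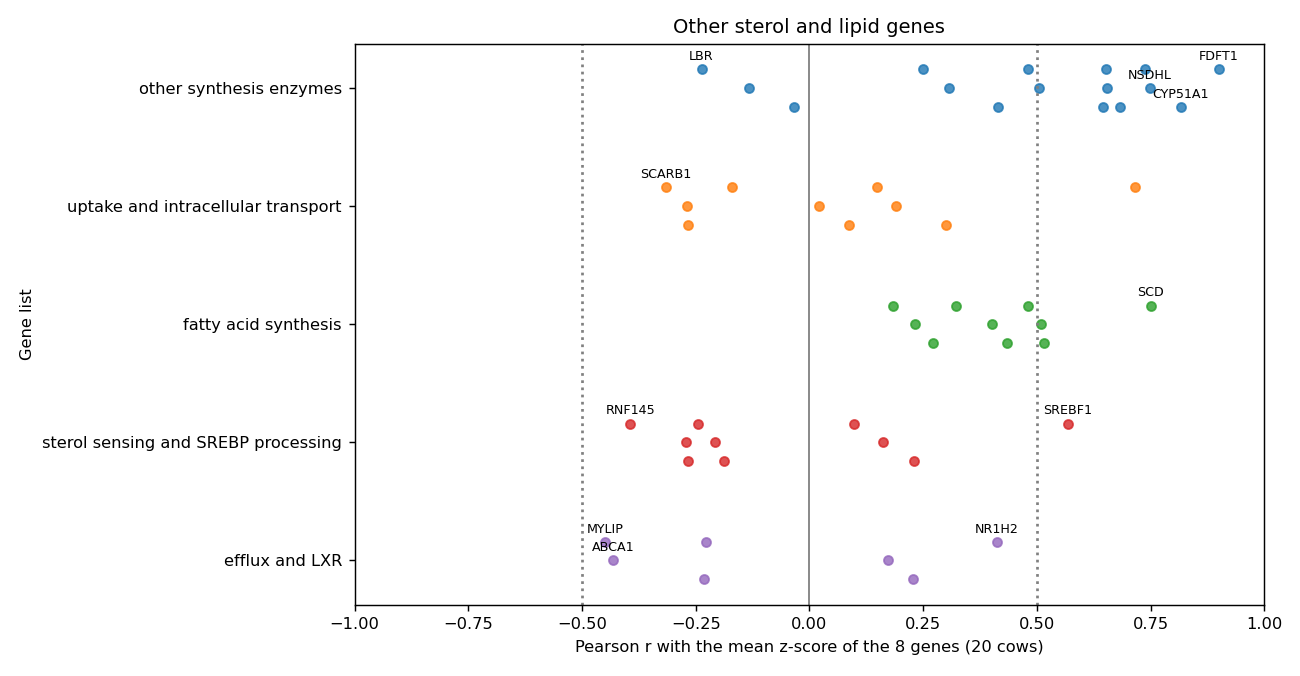
Each point is 1 of the 53 other genes tested, placed by its Pearson correlation with the mean z-score of the 8 genes over 20 cows, in 5 lists, with dotted lines at 0.5 and -0.5 (points are offset vertically for legibility only). Of the 14 points to the right of 0.5, 9 are synthesis enzymes, led by FDFT1 at 0.90, and no point lies to the left of -0.5.

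Outside these lists, the genes closest to the score were PTP4A3 (0.78), ADRB3 (0.77), CDK20 (0.77), GRID1 (0.76), E4F1 (0.75), SEPTIN4 (0.75), POLDIP3 (0.72), TM2D2 (0.72), MAP3K21 (0.71) and HEATR6 (0.71). ADRB3, GRID1 and MAP3K21 had a median below 2 CPM, so their values rest on few counts. At the other end were CHRNB3 (-0.81), GPRIN3 (-0.77), COLEC12 (-0.76), GCNT3 (-0.76) and LOC790871 (-0.75), of which COLEC12, GCNT3 and LOC790871 had a median below 0.5 CPM.

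The 8 genes were also set against scores of 9 lists of blood cell markers and against log2 total count, which made 80 relations. By a permutation test of the Pearson correlation, 0 of the 80 had an adjusted p below 0.05 and 7 had an unadjusted p below 0.05. With the Spearman correlation 1 had, that of IDI1 with the erythroid list (0.74, adjusted permutation p = 0.0184; Pearson 0.59, permutation p = 0.00597, adjusted 0.239, and 0.52 without the 2 farthest cows). All 8 genes had a positive Pearson correlation with the erythroid list (0.14 to 0.59), 0 of 8 with the T cell list (-0.42 to -0.11) and 0 of 8 with total count (-0.52 to -0.091). The eosinophil score rests on 1 gene, because CCR3 and ALOX15 were at 0 counts and the other listed symbols were not matched, so it does not represent that cell type.

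The pairs were also computed on residuals from these scores. With residuals on the neutrophil and T cell scores 20 of the 28 pairs were at 0.5 or above, and with residuals on the neutrophil, T cell, B cell, monocyte and erythroid scores 23 were. With residuals on total count there were 20, and with the erythroid score and total count together, chosen after seeing the data, 20. With total count, 21 pairs in place of 23 had an adjusted permutation p below 0.05, and the pairs of FDPS with DHCR7, SREBF2 and INSIG1 no longer had an unadjusted one below 0.05. All 28 correlations were positive in each of these settings. How many of all pairs of genes tested reach 0.5 on such residuals was not computed. Whether these counts stand out as the 20 of 28 without residuals do was therefore not tested. The permutation p-values on residuals tend to be too small, because the permutation took no account of the total count fitted.

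The question the study put to these samples is whether maternal blood at day 63 relates to the weight of the calf. Counts were modelled on BW in 19 cows, without that of the 72.5 kg calf, with the quasi-likelihood test of edgeR over all 16206 genes. None of the 8 genes had an FDR below 0.05, and none had an unadjusted p below 0.05, where 0% and 13.9% of all genes tested did. The FDR of the 8 genes was between 0.572 and 0.918. With DESeq2's Wald test 0 of the 8 genes had an FDR below 0.05, while 1.22% of the genes with an adjusted p did, and the FDR of the 8 was between 0.561 and 0.932.

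In the 19 cows, IDI1 had the steepest negative slope, with a change of -0.082 on the log2 scale for each 10 kg (95% confidence interval -0.20 to 0.039, FDR of 0.572 with edgeR). HMGCS1 followed with -0.074 (-0.23 to 0.079, FDR of 0.704 with edgeR). SREBF2 had the steepest positive slope, 0.063 per 10 kg (-0.033 to 0.16, FDR of 0.585 with edgeR). In INSIG1 the slope was -0.053 (-0.20 to 0.097), in FDPS -0.048 (-0.19 to 0.093), in DHCR7 -0.027 (-0.12 to 0.069), in SQLE -0.020 (-0.12 to 0.083) and in LSS 0.018 (-0.091 to 0.13). All 8 intervals included 0, and none reached below a fold of 0.855 or above 1.117 per 10 kg.

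By sign, 6 of the 8 slopes were negative, with a median of -0.0037 per kg, and over all genes tested 46.6% were positive, with a median of -0.00072. The 8 genes vary together, so their signs are not 8 separate observations. Without the cow of the 30 kg calf 3 of the 8 were negative and the median was 0.00063. In the 19 fits that each left out 1 cow, no unadjusted p of the 8 genes was below 0.05, and the smallest was 0.0788, for SREBF2 without the cow of the 30 kg calf.

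**Figure D4:**
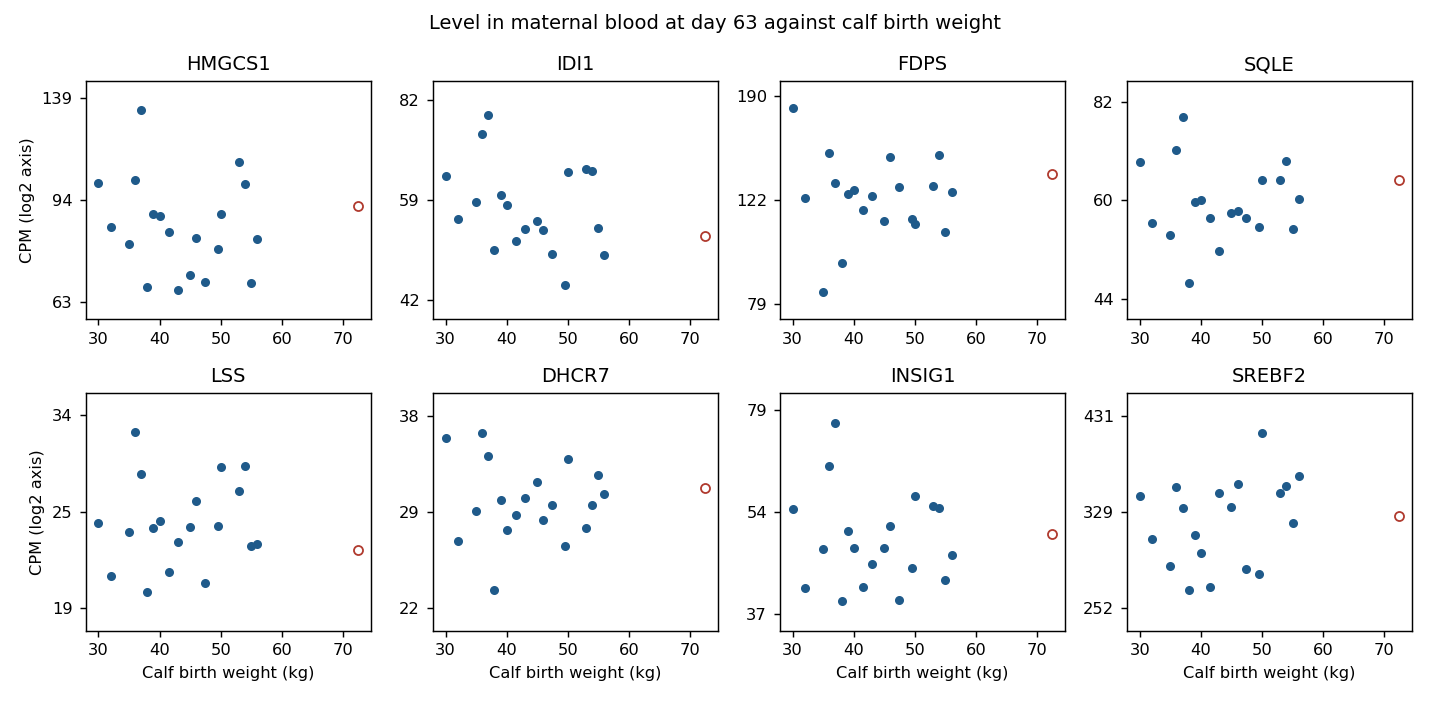
Each panel plots CPM in maternal blood (log2 axis) against calf BW in kg for 1 gene, with 19 cows as filled points and the cow of the 72.5 kg calf, left out of the test, as an open circle. No panel shows a trend that passed the test, and the highest and lowest points of SQLE both belong to cows of light calves, 37 and 38 kg.

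**Figure D5:**
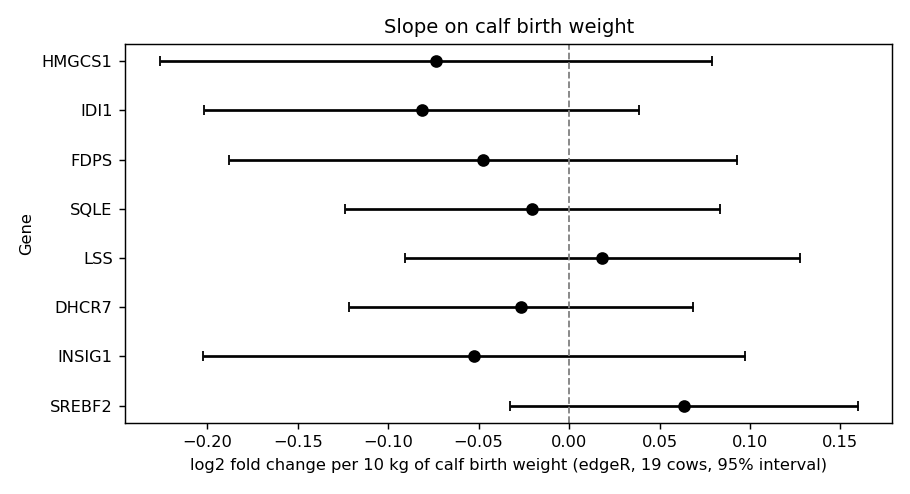
Points are the slope, in log2 units for each 10 kg of calf weight, from edgeR in 19 cows, and bars are 95% confidence intervals. All 8 intervals cross 0, from IDI1 at -0.082 to SREBF2 at 0.063.

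In the wider lists, 25 of the 53 genes had a positive and 28 a negative slope, 8 had an unadjusted p below 0.05 and 0 had an FDR below 0.05 with edgeR. That is 5 positive and 3 negative genes, where 6.78% of all genes tested were positive and 7.08% negative at this level. NCEH1, a hydrolase of cholesteryl ester, had the smallest p. It ranged from 22.9 CPM, for the 36 kg calf, through a median of 26.8 CPM to 35.7 CPM, for the 56 kg calf. Its slope was 0.013 per kg (SE 0.0035, unadjusted p of 0.00112 and FDR of 0.129 with edgeR, FDR of 0.0377 with DESeq2), and between 0.010 and 0.016 in the fits without 1 cow.

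STARD4, a carrier of cholesterol between membranes, ranged from 11 through 15.1 to 39.2 CPM, and its slope was 0.035 (SE 0.012, unadjusted p of 0.00619 and FDR of 0.194 with edgeR). The cow of the 56 kg calf was its highest, and without it the slope was 0.022. The same cow was the highest for SCAP and LPIN1, a regulator of lipid synthesis. SCAP had a slope of 0.023 that was 0.015 without it, and LPIN1 one of 0.025 that was 0.012. Without that cow the unadjusted p from edgeR was 0.0662 for STARD4, 0.113 for SCAP and 0.285 for LPIN1. ELOVL6, a fatty acid elongase, had a slope of 0.014 that lay between 0.012 and 0.016 in the fits without 1 of the 19 cows, but was 0.0080 with all 20 cows (unadjusted p of 0.0877 with edgeR). Among the negative ones were LIPA, the lysosomal lipase (-0.015, FDR of 0.334 with edgeR), and SREBF1 (-0.014, FDR of 0.342 with edgeR). Their unadjusted p was below 0.05 in 11 and 8 of the 19 fits without 1 cow. With all 20 cows SREBF1 was at -0.0087, LIPA at -0.010 and LPIN1 at 0.018, with unadjusted p of 0.0927, 0.0618 and 0.071 from edgeR, and STARD4 was at 0.022.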

How the data were processed

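Per the labels and the methods of the study, the authors checked reads with FastQC 0.11.9, trimmed them with Trimmomatic, aligned them with STAR 2.7.0b to the cattle genome and deposited raw counts per Entrez gene, made with featureCounts of Subread 2.0.3. Strand setting and treatment of multi-mapped reads are not given in the sources used here, and the labels and the methods name different library kits. The cattle gene table used for symbols (assembly ARS-UCD2.0) held all 37063 identifiers. No coordinates are given because the reads were aligned to another build. No sequence table was at hand, so promoter motifs were not analysed here. In that table LSS overlaps a lncRNA and SREBF2 holds MIR33A, both with 0 counts.

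A gene needed 10 or more counts in 5 or more of 19 cows. Slopes on BW came from the quasi-likelihood test of edgeR 4.0.16 under R 4.3.3 after TMM scaling, and the script was tested on simulated data. DESeq2 1.42.0 and limma 3.58.1 with voom were alternatives. Correlations used log2 CPM (prior count 2) in 20 cows and two-sided permutation tests with 100000 resamples. No 2 libraries were repeats, with a chi-square per degree of freedom of at least 12.6 over 190 pairs. Each cow gave 1 library, no batch is named, and p-values measure the spread between these samples.

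The members and lists were chosen with earlier results of these data known. Named genes are the 8 genes, in each list those of smallest p for BW and of highest and lowest correlation with the score, the 10 highest and 5 lowest outside the lists, and the 3 closest to each gene. Other genes given with a value were chosen after their values were seen. Some genes that the rule names are counted in the lists but not reported here.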

Additional observations from a re-analysis of the deposited data

How the results depend on the processing

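The count of the 8 genes with an FDR below 0.05 for BW was 0 under every alternative run. In the wider lists it was 0 with edgeR and with voom and 1, NCEH1, with DESeq2, and the cause was not tested. Over all genes tested the count was 0 with edgeR, with voom and with the rank of BW, 189 with DESeq2, 147 with every gene of any count kept, 4 with all 20 cows, and between 0 and 34 when 1 cow was left out, with 34 in the fit without the 32 kg calf's cow. With all 20 cows the slope of SQLE was 0.00048 and that of LSS -0.00026, and with the erythroid score as a covariate that of SQLE was 5.7e-05, each of the other sign than in 19 cows. Leaving out 1 cow at a time gave slopes between -0.0043 and 0.0011 for SQLE, -0.00054 and 0.0052 for LSS, -0.0088 and 0.0038 for FDPS, -0.0049 and 0.00087 for DHCR7, -0.012 and -0.0024 for HMGCS1, -0.011 and -0.0048 for IDI1, -0.0089 and -0.00015 for INSIG1, and 0.0043 and 0.0093 for SREBF2. The shallowest slopes of HMGCS1, IDI1 and INSIG1 were those without the 37 kg calf's cow. With all 20 cows HMGCS1 was at -0.0027, INSIG1 at -0.0026 and FDPS at -0.00071. The count of relations with marker scores at an adjusted p below 0.05 was 0 to 1 when 1 cow was left out. It was 1 (IDI1 with the erythroid list) when the 37 kg calf's cow was left out, and 1 (SREBF2 with the eosinophil gene) when that of the 36 kg calf was. The count of gene pairs at 0.5 or above was between 19 and 23 with Spearman correlation, variance-stabilized counts, other size factors, another prior count, 19 cows and residuals on marker scores or total count. No paired analysis was possible because all cows belong to 1 group. At this depth the lowest count of any of the 8 genes in a cow was 596, where counting error is small beside the spread between cows.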
